A study of Homo sapiens with 10 samples.

Results

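The genes described here are 10 human genes tied to the exit of cells from the division cycle: the forkhead transcription factor genes FOXO1, FOXO3 and FOXO4, the sestrin genes SESN1, SESN2 and SESN3, and CCNG2, TXNIP, PIK3IP1 and CITED2. They were chosen by gene symbol, and all 10 were found among the 27142 genes of the deposited expression table. Earlier results of these data were known at that choice, so counts of the 10 genes beside all genes are a description. The study profiled 697 cells, an established human pre-B leukaemia line, after exposure to the phorbol ester TPA, an activator of protein kinase C, and without it. The groups compared were 2 RNA-seq libraries of parental 697 cells treated with TPA at 0.5 µg/ml and 2 of untreated parental 697 cells, both grown in RPMI1640 medium with fetal bovine serum. The labels give the treatment time only as 0 to 24 h for the whole series, so the time behind the TPA libraries is not known, and all libraries come from 1 cell line. The 6 ChIP-seq and input samples of the series were not analysed here.

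FOXO proteins are transcription factors held in check by phosphatidylinositol 3-kinase (PI3K): the kinase AKT, which acts below PI3K, phosphorylates them, and they then leave the nucleus. When that signal is low, nuclear FOXO proteins switch on genes that slow the cell cycle, limit growth signals and help cells to withstand stress. In precursor B cells FOXO1 is known as an activator of the recombinase genes and of the interleukin-7 receptor gene. Sestrins restrain the growth kinase complex mTORC1 through the GATOR complexes. All the values below are RNA levels, which do not show where a FOXO protein is in the cell.

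Levels are given in RPKM, reads scaled to gene length and library size, so they can be set side by side between genes. Summed RPKM ranged from 349438 to 388846 over the 4 libraries. The number of reads was not given in the sources used here; judged from how low values step, the other libraries had 91.3% to 97.7% of the depth of control replicate 1. All 12 pre-B markers examined (CD79A, PAX5, VPREB1 and others) reached 1 RPKM, with a sum of 1368 and 1558 RPKM with TPA and 2282 and 2272 RPKM in control. All 8 T-cell markers stayed below that level, with a summed 0.093 and 0.124 RPKM in the TPA libraries and 0.031 and 0.044 RPKM in the controls, as did all 6 erythroid markers; CD3D, CD3E, HBB and HBG1 were listed at 0 in every library. Of 8 myeloid markers 1 reached 1 RPKM, CSF1R, and the sum of the list was 3.13 and 3.85 RPKM with TPA and 0.667 and 0.972 RPKM in control, with FCN1 and S100A9 at 0. Of 6 natural killer and fibroblast markers 1 did, NKG7, and that sum was 8.17 and 7.25 RPKM with TPA and 14.2 and 13.4 RPKM in control, with KLRD1 at 0. The part of such cells in the results was not tested. The labels do not state that replicates came from separate cultures, and p-values therefore measure only the spread between these libraries, which may be technical. In bulk RNA, fewer cells with a transcript and less of it per cell cannot be told apart.

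All 10 genes were higher with TPA. Every one passed the test across all genes (limma on log2(RPKM + 1), adjusted p under 0.05), in which 58.2% of the 12159 genes tested were called, 28.4% higher and 29.8% lower. In all 10, both TPA libraries lay above both controls, as they did for 38.8% of the genes tested, while for 41.0% they lay below both. The log2 fold changes of the 10 genes ran from 0.66 for SESN2 to 3.98 for TXNIP, with a median of 1.90 against -0.02 over all tested genes. In 9 of the 10 the log2 fold change was at least 1, a size that 11.7% of the genes tested reached with a call. The test took genes that reached 1 RPKM in 2 or more libraries. Of the 10 genes, 9 had that level in all 4 libraries; PIK3IP1 had it in 3, and the 9 without it were all called higher too.

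**Figure D1:**
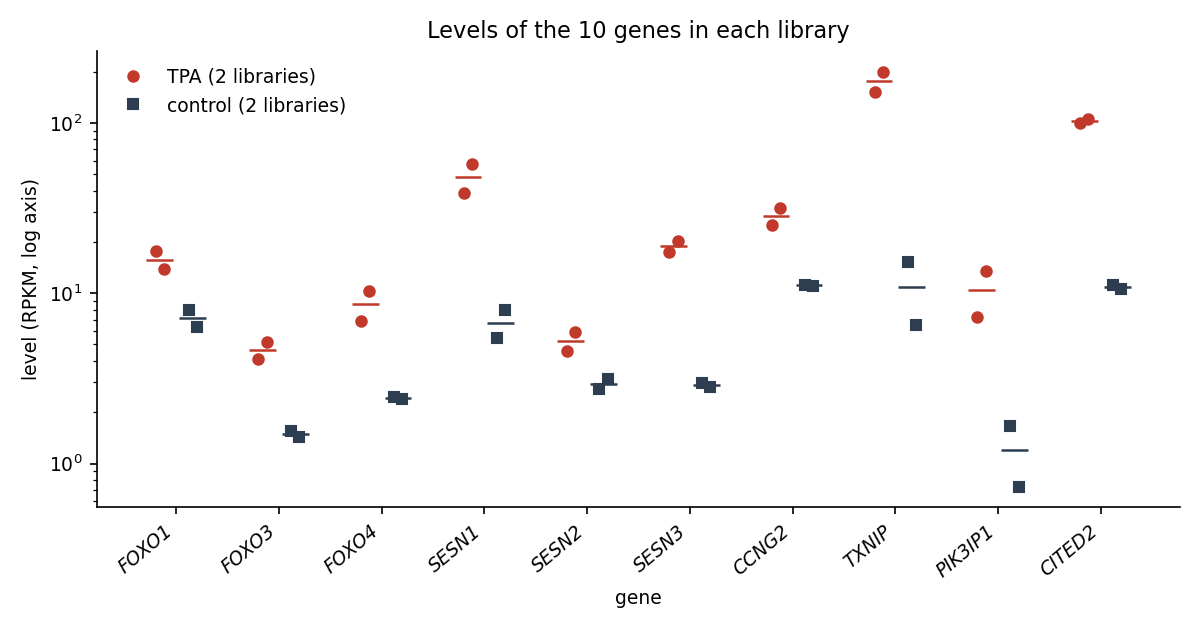
Level of each gene in each library (RPKM, log axis), with TPA libraries as red circles to the left and control libraries as dark squares to the right, and a bar at the mean of each pair. For each of the 10 genes both TPA points lie above both control points; TXNIP and CITED2 have the highest TPA means, at 176 and 103 RPKM.

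Promoters of the genes were searched for a FOXO binding element (GTAAACA, or TGTTTAC on the other strand), an insulin response type element (AAAACAA, or TTGTTTT) and the E-box CACGTG, in windows from 250 bases before to 50 bases after each RefSeq start (GRCh38.p14). Both strands were read, and no match printed here overlaps another. The 10 genes have 19 such windows, since 5 of them have several starts. The FOXO element was found in 3 of the 10 genes (TXNIP, FOXO4 and PIK3IP1), while 4.19% of 27305 genes have it in at least 1 window. The insulin response type element was in 2 (SESN3 and CCNG2, against 9.10% of genes) and the E-box in 2 (CCNG2 and CITED2, against 8.77%). Genes with more windows have more places for a match. Counted by window, the FOXO element was in 3 of 19, against 3.42% of 35116 windows. The insulin response type element and the E-box were each in 2 of 19, against 7.46% and 7.26% of all windows. The 4 stretches below show those windows with the FOXO element, and that of CCNG2, which held both of the other motifs. A match in these letters is a description and not a binding site shown in these cells, and which start the cells used was not analysed here. Motif letters are in capitals, and each stretch reads along the strand of its gene.
TXNIP (chr1:145996550-145996729, minus strand, 150 bases before to 30 after the start): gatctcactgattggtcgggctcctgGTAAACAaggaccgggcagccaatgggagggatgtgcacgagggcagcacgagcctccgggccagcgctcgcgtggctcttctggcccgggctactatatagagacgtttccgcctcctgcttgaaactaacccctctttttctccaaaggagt
FOXO4 (chrX:71095701-71095880, plus strand, 150 bases before to 30 after the start): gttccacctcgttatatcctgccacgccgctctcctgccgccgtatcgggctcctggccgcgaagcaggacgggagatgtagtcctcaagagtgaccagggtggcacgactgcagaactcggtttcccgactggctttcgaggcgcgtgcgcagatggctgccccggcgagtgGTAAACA
PIK3IP1 (chr22:31292454-31292483, minus strand, bases 6 to 35 after the second of its 2 starts): taaagagaggcTGTTTACcagaacagcata
CCNG2 (chr4:77157057-77157236, plus strand, 150 bases before to 30 after the start): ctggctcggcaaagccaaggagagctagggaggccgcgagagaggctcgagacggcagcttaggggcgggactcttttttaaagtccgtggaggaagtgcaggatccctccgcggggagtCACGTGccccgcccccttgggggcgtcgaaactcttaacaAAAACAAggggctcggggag

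The 3 FOXO genes were all higher with TPA, with log2 fold changes from 1.03 to 1.46. FOXO1 (13q14.11), the main FOXO gene of B-cell precursors, had 17.6 and 13.8 RPKM with TPA, against 8.02 and 6.36 RPKM in control. Its log2 fold change was 1.03 (SE 0.167, limma adjusted p = 0.00115), with a 95% interval from 0.64 to 1.41. FOXO3 (6q21) had 4.13 and 5.18 RPKM with TPA, against 1.54 and 1.44 RPKM in control, a log2 fold change of 1.18 (SE 0.143, limma adjusted p = 2.30e-04). For both genes the lower TPA library stood clear of the higher control, by a ratio of 1.72 for FOXO1 and 2.67 for FOXO3. FOXO4 (Xq13.1), whose promoter stretch with the FOXO element is shown above, had 6.84 and 10.3 RPKM with TPA, against 2.47 and 2.39 RPKM in control. Its log2 fold change of 1.46 (SE 0.184, limma adjusted p = 2.81e-04) had an interval from 1.03 to 1.88, which overlaps those of FOXO1 and FOXO3 (0.85 to 1.51); differences between the 3 responses were not tested.

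A near copy and a further family member were read beside them. FOXO3B (17p11.2), listed as a pseudogene and a near copy of FOXO3, had 1.81 and 1.79 RPKM with TPA and 1.62 and 1.52 RPKM in control, and did not pass (limma adjusted p = 0.434). In control its level was as high as that of FOXO3, and how reads shared by both were counted was not given in the sources used here, so the FOXO3 values are uncertain to that extent. FOXO6 (1p34.2), a family member known mainly from brain, was lower: 0.356 and 0.538 RPKM with TPA, against 1.0 and 1.19 RPKM in control (log2 fold change -0.54, limma adjusted p = 0.0104). FOXO6 entered the test through its control libraries alone, which favoured a call of lower, and it did not pass without control replicate 2 (adjusted p = 0.0570). Fits without 1 control replicate, here and below, pool the spread of all genes in full, so a call lost there reflects that change of spread as well as the missing library.

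Among FOXO1, FOXO3 and FOXO4, FOXO1 held the largest share of the summed RPKM in each of the 4 libraries. Its share was 61.6% and 47.1% with TPA, against 66.6% and 62.4% in control. FOXO4 held 24.0% and 35.2% with TPA, against 20.5% and 23.4% in control. FOXO3 held the smallest share in each library, 14.5% and 17.7% with TPA and 12.8% and 14.1% in control. For each of the 3 genes, TPA replicate 1 was close to a control library and TPA replicate 2 stood further off. The sum of the 3 was 28.5 and 29.3 RPKM with TPA, against 12.0 and 10.2 RPKM in control, a ratio of means of 2.60.

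**Figure D2:**
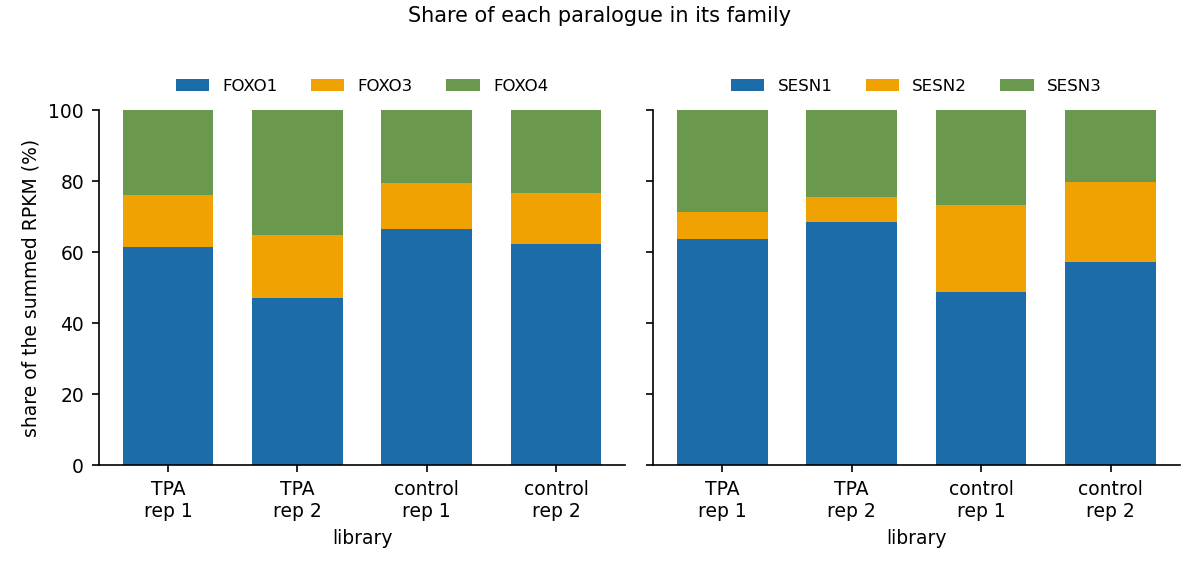
Share (%) of each gene in the summed RPKM of its family, one stacked bar per library, FOXO genes on the left and sestrin genes on the right. FOXO1 is the largest block in every FOXO bar; the SESN2 block covers 7.60% and 7.11% of the TPA bars and 24.5% and 22.6% of the control bars.

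The 3 sestrin genes were higher as well, with log2 fold changes from 0.66 to 2.66. SESN1 (6q21), described as a target of both p53 and FOXO factors, had 38.6 and 57.3 RPKM with TPA, against 5.47 and 7.98 RPKM in control. Its log2 fold change was 2.66 (SE 0.223, limma adjusted p = 3.09e-05), with an interval from 2.14 to 3.17. SESN3 (11q21), a FOXO target gene, had 17.4 and 20.4 RPKM with TPA, against 2.98 and 2.80 RPKM in control, and a log2 fold change of 2.35 (SE 0.138, limma adjusted p = 4.56e-06). In both genes the lower TPA library was several times above the higher control, by ratios of 4.84 for SESN1 and 5.83 for SESN3. SESN2 (1p35.3), the sestrin best known as a leucine sensor and as a stress-induced gene, had 4.60 and 5.95 RPKM with TPA, against 2.74 and 3.14 RPKM in control. This was the smallest rise of the 10 genes, with a log2 fold change of 0.66 (SE 0.152, limma adjusted p = 0.00629). Its interval, from 0.31 to 1.02, did not overlap those of SESN1 and SESN3 (2.03 to 2.67); the difference itself was not tested.

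SESN1 also held the largest share of the summed sestrin RPKM, 63.8% and 68.5% with TPA against 48.9% and 57.4% in control. SESN2 held 7.60% and 7.11% with TPA, against 24.5% and 22.6% in control, with no overlap between the groups. SESN3 held 28.7% and 24.4% with TPA and 26.6% and 20.1% in control, and its groups overlapped. No test was run on these shares, since 0.333 is the smallest two-sided p that exact permutation of 4 libraries allows. The sum of the 3 sestrins was 60.6 and 83.6 RPKM with TPA, against 11.2 and 13.9 RPKM in control. In RefSeq, SESN1 overlaps ARMC2 and SESN3 overlaps LOC100129203. ARMC2 had 0.486 and 0.991 RPKM with TPA and 0.155 and 0.188 RPKM in control, and LOC100129203 had 0.690 and 1.07 RPKM with TPA and 0.142 and 0.112 RPKM in control, levels far below those of the sestrins they overlap.

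TXNIP (1q21.1) showed the largest rise. It encodes an alpha-arrestin that binds thioredoxin and promotes removal of glucose transporters from the cell surface, and its promoter stretch with the FOXO element is the first shown above. It had 151 and 200.0 RPKM with TPA, against 15.3 and 6.54 RPKM in control. The TPA libraries were closer to each other, whereas the control libraries differed by more than those of any other of the 10 genes, by 1.11 on the log2(RPKM + 1) scale. The log2 fold change was 3.98 (SE 0.323, limma adjusted p = 2.54e-05), and it ranged from 3.43 to 4.54 when 1 library was left out. By size of rise TXNIP stood at place 79 of the 12159 genes tested. The 5 tested genes whose 4 centred values lay nearest to those of TXNIP were MIR6784, STAP1, TMEM173, MAP2 and SIAE, with distances from 0.382 to 0.683 on the log2 scale over the 4 libraries; none is among the 10 genes described. SIAE, for example, had 40.9 and 64.3 RPKM with TPA, against 2.49 and 2.09 RPKM in control. MIR6784, STAP1 and MAP2 stayed below 1 RPKM in both control libraries and passed the filter through their TPA libraries alone.

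CITED2 (6q24.1), which encodes a partner of the coactivators CBP and p300 that limits HIF-1 activity and is needed for quiescence of blood stem cells in mice, had 100.4 and 105 RPKM with TPA, against 11.2 and 10.6 RPKM in control. Replicates agreed closely in both groups, and the log2 fold change of 3.12 (SE 0.130, limma adjusted p = 9.13e-07) had the smallest p of the 10. CCNG2 (4q21.1) encodes cyclin G2, an unconventional cyclin linked to arrest rather than to progress of the cycle. It had 25.1 and 31.6 RPKM with TPA, against 11.2 and 11.1 RPKM in control, a log2 fold change of 1.26 (SE 0.151, limma adjusted p = 2.06e-04). PIK3IP1 (22q12.2), which encodes a membrane protein that inhibits PI3K, had 7.30 and 13.5 RPKM with TPA, against 1.67 and 0.733 RPKM in control. Its libraries were spread in both groups, yet the groups stood apart by a ratio of at least 4.37, and the log2 fold change was 2.35 (SE 0.286, limma adjusted p = 2.30e-04).

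**Figure D3:**
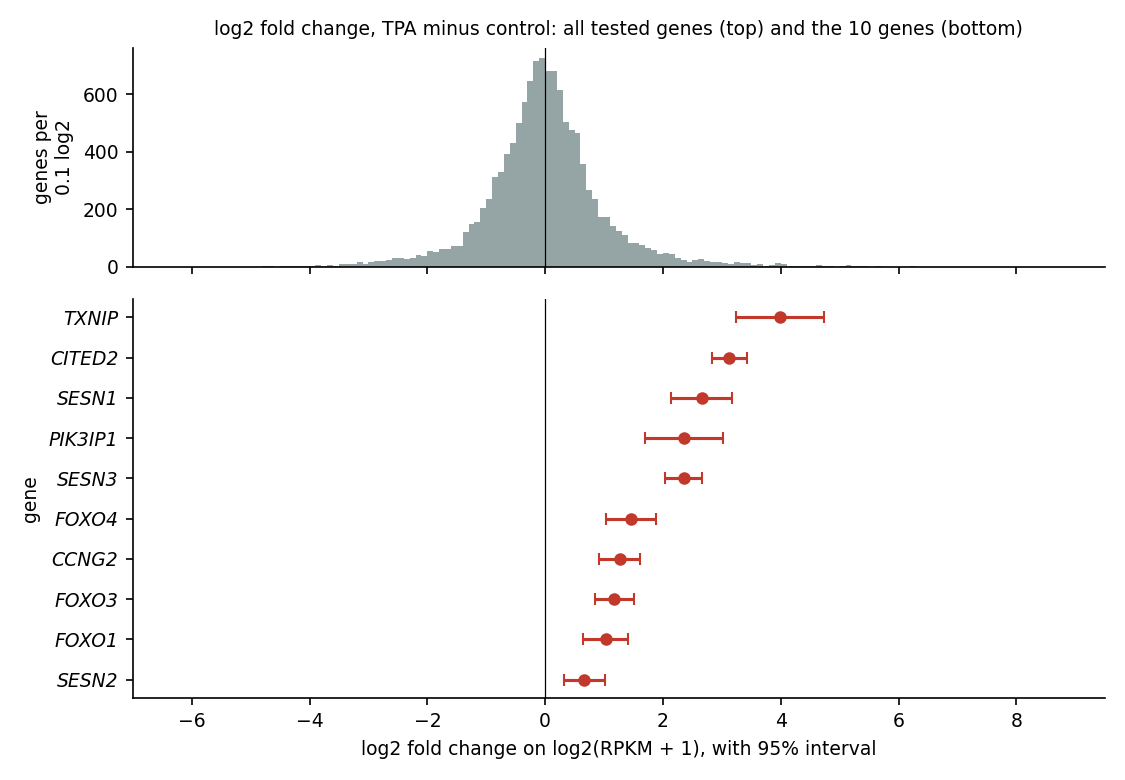
Top: number of tested genes in each 0.1-wide step of log2 fold change (TPA minus control). Bottom: log2 fold change of each of the 10 genes with its 95% interval from limma, on the same axis; SESN2 at 0.66 is the lowest and TXNIP at 3.98 the highest, and no interval reaches 0.

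The order of levels differed between the groups. With TPA it ran from TXNIP (176 ± 34.3 RPKM, mean ± SD, n = 2, as for the values that follow) over CITED2 (103 ± 3.35), SESN1 (47.9 ± 13.2), CCNG2 (28.4 ± 4.62), SESN3 (18.9 ± 2.14), FOXO1 (15.7 ± 2.65), PIK3IP1 (10.4 ± 4.41), FOXO4 (8.58 ± 2.47) and SESN2 (5.27 ± 0.952) to FOXO3 (4.65 ± 0.743). In control CCNG2 (11.1 ± 0.126), TXNIP (10.9 ± 6.18) and CITED2 (10.9 ± 0.451) led, followed by FOXO1 (7.19 ± 1.17), SESN1 (6.72 ± 1.77), SESN2 (2.94 ± 0.279), SESN3 (2.89 ± 0.127), FOXO4 (2.43 ± 0.0580), FOXO3 (1.49 ± 0.0735) and PIK3IP1 (1.2005 ± 0.661). Neighbours whose library ranges overlapped were, with TPA, SESN3 and FOXO1, PIK3IP1 and FOXO4, and SESN2 and FOXO3. In control they were CCNG2 and TXNIP, TXNIP and CITED2, FOXO1 and SESN1, SESN2 and SESN3, and FOXO3 and PIK3IP1. Within the TPA group, 9 of the 10 genes were higher in replicate 2 than in replicate 1, as were 73.1% of all tested genes; FOXO1 was the exception.

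Genes of the pathways around these 10 are given next, and their counts can be read against the 28.4% of all tested genes that were called higher and the 29.8% called lower; some genes stand in more than 1 list. Most of the B-lineage genes known as FOXO1 targets moved opposite to FOXO1. Of 13 tested genes 8 fell and 2 rose, while 3 did not pass, with a median log2 fold change of -1.08. RAG1, which encodes a subunit of the V(D)J recombinase, had 2.90 and 6.34 RPKM with TPA, against 38.2 and 36.7 RPKM in control, and its partner RAG2 had 2.48 and 5.66 RPKM with TPA, against 46.0 and 42.1 RPKM in control. The interleukin-7 receptor gene IL7R had 12.2 and 23.7 RPKM with TPA, against 135 and 149.9 RPKM in control, and the adaptor gene BLNK had a log2 fold change of -3.34 (limma adjusted p = 1.19e-05). The 2 that rose encode receptors that guide lymphocyte migration: CCR7 had 49.6 and 51.7 RPKM with TPA, against 9.33 and 13.7 RPKM in control, and S1PR1 had 2.21 RPKM in both TPA libraries, against 0.239 and 0.223 RPKM in control. S1PR1 passed the filter through its TPA libraries alone. KLF2, another migration-linked target, was under the filter, with at most 0.167 RPKM in any library.

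FOXO targets of the cell cycle and of cell death were split. Among 17 tested genes 5 rose and 6 fell, and 6 did not pass (median log2 fold change -0.05). The death genes BCL2L11 (BIM) and BBC3 (PUMA) rose, with 43.8 and 61.2 RPKM with TPA against 15.9 and 16.9 RPKM in control for BCL2L11, and 8.57 and 12.3 RPKM with TPA against 3.09 and 4.54 RPKM in control for BBC3. The 6 that fell were PLK4 (log2 fold change -3.18), which acts in centriole copying, the mitotic cyclin gene CCNB1 (-1.98), the CDK inhibitor genes CDKN2D (-2.56) and CDKN1A (-1.08), the death gene PMAIP1 (-0.96) and the transcription factor gene KLF4 (-1.05). KLF4 passed the filter through its control libraries alone. CDKN1B, which encodes the inhibitor p27 and is a classical FOXO target, did not pass: it had 14.5 and 20.0 RPKM with TPA and 14.1 and 15.2 RPKM in control (log2 fold change 0.21, limma adjusted p = 0.322), and its log2 fold change was -0.01 without TPA replicate 2.

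Metabolic and stress targets went both ways too. The 16 tested genes included 7 that rose, 5 that fell and 4 that did not pass (median log2 fold change 0.03). The insulin receptor substrate gene IRS1 had 16.0 and 19.7 RPKM with TPA, against 2.37 and 2.27 RPKM in control, and FBXO32, which encodes the ubiquitin ligase subunit atrogin-1, had 3.39 and 4.10 RPKM with TPA, against 0.405 and 0.310 RPKM in control. FBXO32 passed the filter through its TPA libraries alone. INSR, the insulin receptor gene, and EIF4EBP1, which encodes an inhibitor of translation initiation, fell, with log2 fold changes of -1.10 and -1.41. Without either control replicate 4 of these genes rose in place of 7, and without control replicate 2 3 fell in place of 5.

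Genes of the PI3K and AKT pathway that acts on FOXO proteins changed in part. Rises numbered 6 and falls 3 among 20 tested genes, with 11 not passing (median log2 fold change 0.05). AKT1 had 42.8 and 50.1 RPKM with TPA, against 86.1 and 90.0 RPKM in control (log2 fold change -0.91, limma adjusted p = 8.38e-04). PHLPP1, an AKT phosphatase gene, fell as well, with 4.79 and 6.30 RPKM with TPA against 18.5 and 18.1 RPKM in control. The catalytic subunit gene PIK3CG rose to 51.7 and 43.9 RPKM with TPA, against 13.4 and 13.2 RPKM in control. Without control replicate 2, 3 genes of this list rose in place of 6, and with quantile normalization 6 fell in place of 3.

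Among 22 tested genes whose products modify, bind or export FOXO proteins, 12 fell, 3 rose and 7 did not pass (median log2 fold change -0.44). SKP2, a ubiquitin ligase subunit gene, had 15.1 and 18.5 RPKM with TPA, against 60.9 and 67.3 RPKM in control. YWHAH, one of the 14-3-3 genes whose products hold phosphorylated FOXO in the cytoplasm, had 31.6 and 38.5 RPKM with TPA, against 86.5 and 101 RPKM in control. The kinase genes MAPK8 (JNK1) and STK4 (MST1) rose by small amounts, with log2 fold changes of 0.56 and 0.39. Their paralogues MAPK9 (JNK2) and STK3 (MST2) were among those that fell, with log2 fold changes of -0.67 and -1.14. STK4 did not pass when any single library was left out (adjusted p from 0.0607 to 0.263), nor did MAPK8 without control replicate 1 or TPA replicate 2. The falls numbered 7 without control replicate 1 and 6 without control replicate 2, and the rises 0, 1 and 1 without control replicate 1, control replicate 2 and TPA replicate 2.

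Most genes of the sestrin, GATOR and mTORC1 pathway did not pass. With 34 tested, 5 were called higher and 9 lower, and 20 did not pass (median log2 fold change 0.01). SQSTM1, which encodes the autophagy receptor p62, had 46.4 and 47.0 RPKM with TPA, against 28.0 and 25.7 RPKM in control. The Rag GTPase genes RRAGB and RRAGD had log2 fold changes of 0.45 and -0.96. SEH1L, a subunit gene of the GATOR2 complex that sestrins bind, had 29.5 and 33.3 RPKM with TPA, against 60.7 and 67.4 RPKM in control. RRAGB did not pass without control replicate 1 (log2 fold change 0.36) or TPA replicate 2 (log2 fold change 0.40). Nor did it pass with no filter (limma adjusted p = 0.0780). The rises numbered 2 without TPA replicate 2 and 3 without any 1 of the other libraries, in place of 5. Fitted without the filter, 1 gene rose. The falls numbered 5 in place of 9 without control replicate 2 or TPA replicate 1.

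A list around TXNIP held other alpha-arrestins, thioredoxins and their reductases, the MondoA factors that induce TXNIP and 2 glucose transporters. Of its 12 tested genes 6 rose and 2 fell, while 4 did not pass (median log2 fold change 0.37). Of the 4 alpha-arrestin genes tested, ARRDC2, ARRDC3 and ARRDC4 rose and ARRDC1 did not pass. The arrestin gene ARRDC3 had 20.9 and 16.6 RPKM with TPA, against 4.31 and 2.71 RPKM in control. The glucose transporter gene SLC2A3 had 20.7 and 18.2 RPKM with TPA, against 4.11 and 3.11 RPKM in control. The thioredoxin reductase gene TXNRD1 fell to 48.7 and 56.3 RPKM with TPA, against 104 and 109.7 RPKM in control. MLXIP, the gene of MondoA itself, rose to 28.2 and 25.7 RPKM with TPA, against 16.0 and 13.3 RPKM in control. Its log2 fold change was 0.84 (limma adjusted p = 0.00159). MLX, the partner gene of MondoA, had a log2 fold change of -0.54. MLX did not pass without control replicate 2 (adjusted p = 0.0855), which left 1 fall. A list around CITED2 and CCNG2 held their paralogues and a few partners, and of its 5 tested genes limma called 2 lower (CITED4 and CCNG1) and 0 higher, while CCNI, GAK and HIF1A did not pass. With either other scaling and with the replicate block 1 was called higher, and with the filter at 5 RPKM 1 was called lower. CITED4 had 0.152 and 0.235 RPKM with TPA, against 1.34 and 1.21 RPKM in control, and passed the filter through its control libraries alone. CCNG1, the other cyclin G gene, had 50.2 and 55.6 RPKM with TPA, against 86.5 and 94.5 RPKM in control.

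Other genes tied to quiescence mostly changed, in both directions. Of the 23 that were tested 12 rose and 7 fell, and 4 did not pass (median log2 fold change 0.37). The antiproliferative genes BTG1 and BTG2 rose with the smallest p of this list. BTG1 had 175 and 199 RPKM with TPA, against 12.5 and 11.9 RPKM in control, and BTG2 had 215 and 192 RPKM with TPA, against 6.20 and 3.73 RPKM in control. RBL1, which encodes the pocket protein p107, and LIN9, a subunit gene of the complex that pocket proteins join on cell-cycle promoters, fell, with log2 fold changes of -2.14 and -1.97. The other pocket protein gene of this list, RBL2, did not pass (limma adjusted p = 0.726). It had 18.9 and 23.9 RPKM with TPA and 20.8 and 24.1 RPKM in control. All 20 reference genes of proliferation were called lower, with a median log2 fold change of -3.22. MCM4, a subunit gene of the replicative helicase, and RRM2, which encodes a subunit of ribonucleotide reductase, had log2 fold changes of -4.37 and -4.49. The replication clamp gene PCNA had 20.0 and 29.7 RPKM with TPA, against 344 and 442 RPKM in control, and the proliferation marker MKI67 had 1.90 and 1.03 RPKM with TPA, against 14.4 and 13.2 RPKM in control. Among other forkhead genes, 10 were tested, of which 2 rose and 3 fell. FOXM1, which drives genes of mitosis, had 3.21 RPKM in both TPA libraries, against 41.8 and 44.9 RPKM in control, and FOXP1, which acts in early B cells, had 19.5 and 19.7 RPKM with TPA, against 11.7 and 9.57 RPKM in control. FOXN3, the other that rose (log2 fold change 0.57), did not pass without control replicate 2 (adjusted p = 0.0660), which left 1 rise.

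**Figure D4:**
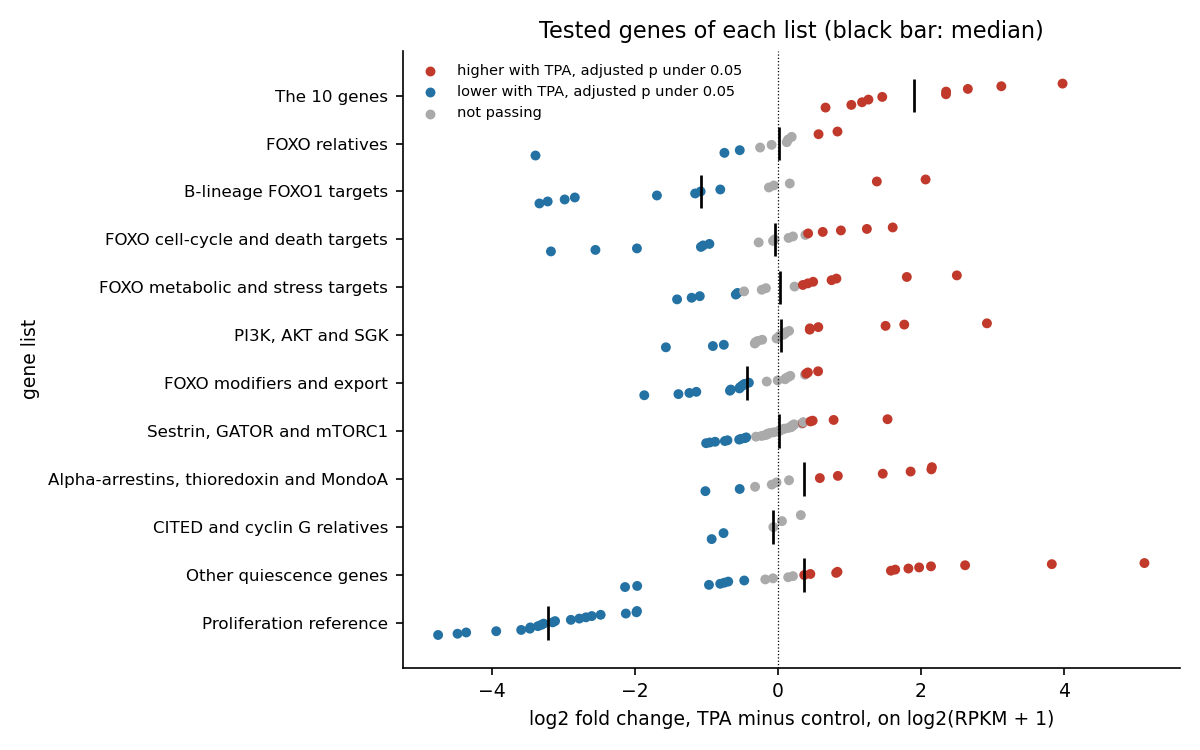
Log2 fold change (TPA minus control, on log2(RPKM + 1)) of each tested gene, by list, with red points called higher, blue points called lower, grey points not passing and a black bar at the median. The 10 genes described here all lie above 0 with a median of 1.90, and all 20 proliferation genes lie below 0 with a median of -3.22.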

How the data were processed

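The authors deposited 1 table with RPKM values (reads scaled to gene length and library size) for 27142 genes in 4 RNA libraries, per the file headers, each gene with 1 RefSeq accession, symbol and band. CASAVA 1.8, Bowtie 1.12, TopHat, SAMtools and HOMER were used on hg19, per the submitters' processing notes, with no role or order given; the sources used here do not give strand use or the handling of reads that map to several places. Libraries were grouped by their titles.

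Since RPKM values are no counts, no test for counts was run. Relative depth came from the ratio of low values (0.03 to 0.15 RPKM) between libraries; absolute depth is unknown, so no counting interval is given. Values were taken as log2(RPKM + 1), which understates changes of low genes. The 12159 genes that reached 1 RPKM in 2 or more libraries entered 1 limma fit (version 3.58.1, R 4.3.3) of TPA minus control with a mean-variance trend; the degrees of freedom were 2 residual and 5.88 prior. Its p-values are two-sided, with Benjamini-Hochberg adjustment over all genes tested. The fit was also run on simulated data in which few genes changed and the noise was independent between libraries. In the real data 58.2% of the genes tested were called, so that run does not show how the fit behaves here. The members and the 11 gene lists were chosen with earlier results of these data known. The genes named are the members, the 2 genes of each list with the smallest p in each direction, the 5 genes nearest in pattern to the member with the largest rise, and a fixed set (MKI67, PCNA, CDKN1B, IL7R, RAG1, RAG2, AKT1 and KLF2, among others); some genes this rule takes are not reported here. FOXO3B, the overlapping genes, CDKN1A, CDKN2D, PMAIP1, KLF4, MAPK9, STK3, ARRDC1, ARRDC2, ARRDC4, MLXIP, CCNI, GAK, HIF1A, RBL2 and those in the other observations were chosen after their values were seen. Alternatives were pseudocounts of 0.1 and 0.5, no filter and one at 5 RPKM, median-of-ratios and quantile scaling, no trend, robust estimation, adjusted p thresholds of 0.01 and 0.1, the replicate number as a block, treat with a 1.2-fold margin and each library left out. Promoter windows came from RefSeq (GRCh38.p14), all 10 members matched by symbol, and no hg19 coordinate was used. Figures were drawn with matplotlib 3.10.9.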

Additional observations from a re-analysis of the deposited data

How the results depend on the processing

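All 10 genes were called higher under each alternative run in which they were tested, and each log2 fold change kept its sign; with the filter at 5 RPKM 8 were tested (FOXO3 and SESN2 were not), and all 8 were called, but FOXO4, SESN3 and PIK3IP1 passed that filter through the TPA libraries alone, so their calls there add no support. The adjusted p nearest the threshold was that of SESN2 with no filter (0.0479). The replicate number as a block left all 10 called, with 3946 genes higher and 4288 lower over the whole table, against 3454 and 3621 without it. Deviations of same-numbered libraries correlated at 0.361 over genes, and with 2 pairs this does not show that the numbers pair the libraries. With quantile normalization the mean FOXO3 share was 14.5% in control, against 13.5% as deposited, and the mean SESN2 share was 6.99% with TPA, against 7.35%. Counts of the gene lists moved by over 1.5 times in 36 cases. In 294 cases they moved by no more than 1.5 times or did not move. The cause of the moves was not tested. CDKN1B alone among the named genes changed sign, with a log2 fold change from -0.0102 to 0.427 when 1 library was left out, and 12 other calls of named genes were lost in such fits or with no filter. The fits that lack 1 control replicate have infinite prior degrees of freedom, so calls and counts given without a control replicate reflect a different estimate of the spread too. Depth is known only relative to control replicate 1, which limits low genes such as PIK3IP1 and FOXO3 in control.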

Other observations

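The control libraries differed in TXNIP and in some other genes, chosen after their values were seen. TXNIP had 15.3 RPKM in control replicate 1 and 6.54 RPKM in control replicate 2, a log2 difference of -1.11, at place 17 from the lowest among the 12159 genes tested, while the median absolute difference between the controls was 0.128. DDIT4, which encodes an mTORC1 inhibitor induced by low oxygen, had 72.0 and 20.4 RPKM in these libraries, against 115 and 111 RPKM in the TPA libraries. The glucose transporter gene SLC2A1 (18.9 and 9.37 RPKM), the mitophagy gene BNIP3 (17.7 and 10.1 RPKM), PIK3IP1 (1.67 and 0.733 RPKM), and the arrestin genes ARRDC3 (4.31 and 2.71 RPKM) and ARRDC4 (1.18 and 0.685 RPKM) were also lower in control replicate 2. SESN1 was higher there (7.98 RPKM, against 5.47 RPKM in control replicate 1), and CITED2 was close in both (10.6 and 11.2 RPKM). The TPA libraries stood above both controls for TXNIP, PIK3IP1, DDIT4, ARRDC3 and ARRDC4. For BNIP3 they lay below both controls (5.59 and 4.88 RPKM with TPA), and for SLC2A1 they lay between them (15.3 and 11.3 RPKM with TPA).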
